A study of Mus musculus with 12 samples.

Results

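Livers of mice housed at 6 °C were compared with livers of mice housed at 22 °C, which asks what the liver transcriptome of a tumour-bearing mouse does in the cold relative to an ordinary animal room. All mice were wild type, carried E0771 tumours and were sampled at day 21, so both groups shared the tumour and neither held an untreated or tumour-free control. E0771 is a mouse mammary carcinoma line, injected here into a mammary fat pad, and the protocol gives 1 week of acclimatisation to the temperature, free access to food and a cycle of light and dark. The sources used here give neither age nor sex. The comparison used 8 of the 12 libraries of the series: libraries 1 to 4 from 6 °C and libraries 5 to 8 from 22 °C, 4 in each group. Libraries 9 to 12, from 29 °C, entered the fit without being compared. They shared its estimate of the spread and helped set the filter, the scaling and the term for H2-Ea-ps described below. The fold changes between 6 °C and 22 °C therefore also depend on them. Of 55421 genes counted, 15006 passed a filter on low counts and were tested. The growth protocol names both Balb/C and C57Bl6/J mice without tying either to a library. The labels do not tie each library to its own animal, so p-values here measure the spread between these libraries.

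A mouse held far below its thermoneutral temperature makes heat mainly in brown adipose tissue, and the liver supplies that tissue with fuel and hormones. Hepatocytes break down amino acids, make glucose, ketone bodies, triglyceride and bile acids, and secrete signals such as FGF21, a hormone induced by fasting and stress. Hepatocytes also contain a circadian clock, whose transcripts rise and fall over the day and respond strongly to feeding time.

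Total counts lay between 7615585 and 14770547 in the 8 libraries, so that 3 counts, the most that a count of 0 allows, correspond to between 0.192 and 0.399 CPM, the count relative to the scaled library total. Such limits cover counting error only. Hepatocyte markers summed to between 119500 and 229400 CPM, and each of the 11 markers was detected in all 8 libraries. Library 1 (6 °C) and libraries 7 and 8 (22 °C) held 15.5 to 17.1 CPM of H2-Ea-ps, an MHC class II pseudogene transcript, and the other 5 of the 8 held 0. A term for this split was part of the fit, and the 4 libraries with the transcript (library 9 is the fourth) are not groups of the study. The sources used here do not say whether the split, and so this term, follows strain or cohort. The non-coding transcript Gm26917 took 0.667% and 0.606% of counts in libraries 5 and 6 and 1.66% to 8.70% in the other 6. Library 1 held 2.27% mitochondrial ribosomal RNA, against 0.0971% to 0.774% in the other 7. Fewer cells of a type and less RNA per cell cannot be told apart in such bulk samples.

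At an adjusted p under 0.05, 55 genes differed between 6 °C and 22 °C, which is 0.367% of those tested. Among them 29 were higher at 6 °C (0.193%) and 26 were lower (0.173%). At an unadjusted p under 0.05 the count was 2355 (15.7%). The fold change was at least 2-fold (an absolute log2 fold change of 1 or more) in 31 called genes, 15 higher and 16 lower. In 45 of the 55, all 4 libraries of one temperature lay above all 4 of the other, against 6.33% of all genes tested. Each of the 55 was also separated, in the same direction, within the 5 libraries without H2-Ea-ps and within the 3 with it, where the share over all genes was 16.2%. The 55 were called from these same libraries, so neither kind of separation is further support for them. The median fold change over all tested genes was -0.0038 on the log2 scale, with 49.5% positive. Without the split term 5 genes passed (0.0333%), all among the 55: Hes6, Prodh and Mmd2 higher (0.02%), Hectd2os and Inhba lower (0.0133%). The count depended on single libraries. Leaving out library 1 gave 11 called genes, library 5 gave 8, library 6 gave 9, library 7 gave 32, library 10 gave 22 and library 11 gave 36, while leaving out library 8 gave 87 and library 9 gave 100. With libraries 5 and 6 both left out, 6 genes passed and 3 of them were among the 55.

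**Figure D1:**
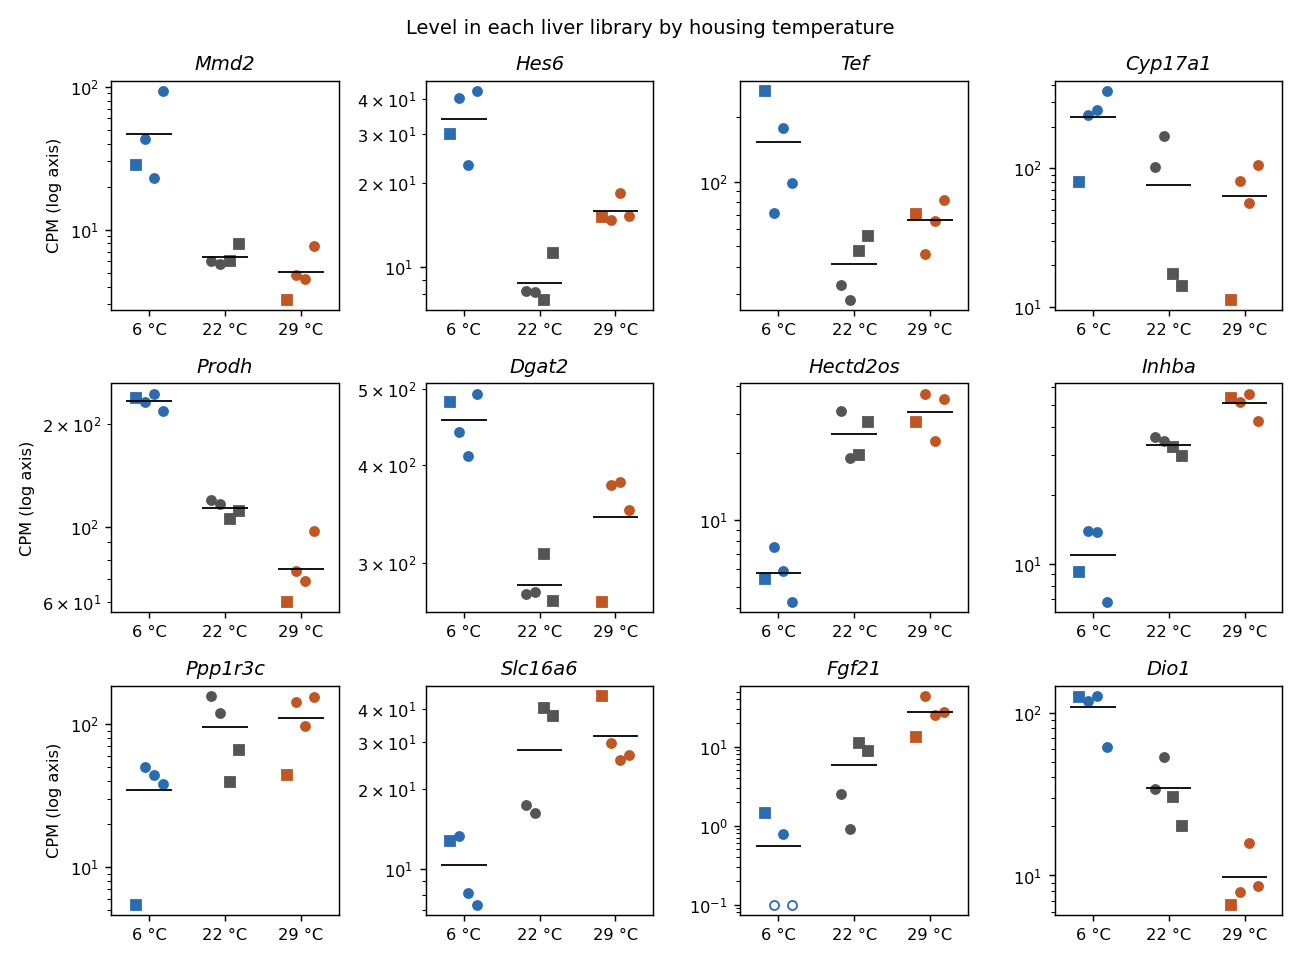
Levels of 12 genes in each of the 12 libraries, in CPM on a log axis, by housing temperature. Squares are libraries with H2-Ea-ps, circles those without, horizontal bars the group means, and open circles libraries at 0 CPM, drawn at 0.1. In Hes6, Prodh, Hectd2os and Inhba the 6 °C and 22 °C libraries did not overlap, while in Cyp17a1, Ppp1r3c and Fgf21 they did.

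The genes whose calls were least dependent on single libraries were Prodh, Hes6, Hectd2os and Inhba. Prodh encodes proline dehydrogenase, the mitochondrial enzyme that starts proline breakdown (ENSMUSG00000003526.12, chromosome 16, 18060357 to 18090203, minus strand of GRCm38). Its level was 238, 231, 245 and 218 CPM in libraries 1 to 4 at 6 °C and 119.8, 116, 105 and 111 CPM in libraries 5 to 8 at 22 °C. The 4 values of each temperature lay close together, the groups were far apart, and Prodh rose about 2-fold at 6 °C (log2 fold change 1.01 with a standard error of 0.13, adjusted p = 0.00599). Hes6, a basic helix-loop-helix transcription factor related to the Notch-responsive Hes family (ENSMUSG00000067071.8, chromosome 1, 91411483 to 91414038, minus strand), stood at 29.9, 40.1, 23.1 and 42.4 CPM at 6 °C. At 22 °C its values were 8.21, 8.15, 7.66 and 11.2 CPM, so that every cold library was above every library at 22 °C (log2 fold change 1.93 with a standard error of 0.21, adjusted p = 0.000907).

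Inhba encodes the beta-A subunit of activin A, a secreted signal of the TGF-beta family (ENSMUSG00000041324.14, chromosome 13, 16011851 to 16031621, plus strand). Its level was 9.15, 13.96, 13.8 and 6.78 CPM at 6 °C and 36.1, 34.5, 32.6 and 29.7 CPM at 22 °C. All cold libraries were low, and Inhba fell at 6 °C (log2 fold change -1.65 with a standard error of 0.20, adjusted p = 0.00226). No other member of the 12 measured activin and follistatin genes passed. Inhbe, the activin subunit made mainly by hepatocytes, ranged from 6.36 to 90.9 CPM at 6 °C and from 11.9 to 73.8 CPM at 22 °C, with overlapping groups (log2 fold change 0.13, adjusted p = 0.943). The activin antagonist Fst had a log2 fold change of 0.19 (adjusted p = 0.807).

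Hectd2os is a long non-coding RNA transcribed opposite to Hectd2 (ENSMUSG00000087579.7, chromosome 19, 36614052 to 36705641, minus strand). It was counted at 5.40, 7.58, 5.88 and 4.27 CPM at 6 °C and 31.0, 19.1, 19.6 and 27.6 CPM at 22 °C, with no overlap (log2 fold change -2.12 with a standard error of 0.23, adjusted p = 0.000907). Exons of the pair overlap, and the sources used here do not say whether counting used strand. For Hectd2 itself the mean was 5.03 ± 0.668 CPM in the cold and 4.40 ± 1.35 CPM at 22 °C (SD, n = 4 each; log2 fold change 0.10, adjusted p = 0.879). Prodh, Hes6 and Hectd2os passed in 27 and Inhba in 26 of 28 alternatives. With libraries 5 and 6 both left out, 3 of the 4 lost their call, at an adjusted p of 0.115 for Prodh, 0.0823 for Inhba and 0.0508 for Hes6, while Hectd2os kept it (0.0225). Inhba also missed in the 8 libraries alone without the split term (0.0808), and Hectd2os within the 3 libraries with H2-Ea-ps (0.0580). Within the splits, which share their libraries with the fit that made the calls, Prodh differed by 0.97 without H2-Ea-ps and 1.14 with it on the log2 scale, Hes6 by 2.10 and 1.67, Inhba by -1.63 and -1.77, and Hectd2os by -2.11 and -2.12.

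Mmd2 had the highest fold change of the called genes whose log2 CPM averaged 1 or more. It belongs to the progestin and adipoQ receptor family of membrane proteins (ENSMUSG00000039533.8, chromosome 5, 142562358 to 142608800, minus strand). Its values were 28.4, 43.2, 22.8 and 92.6 CPM at 6 °C and 6.00, 5.70, 6.07 and 7.91 CPM at 22 °C, so the cold libraries were all higher but spread widely (log2 fold change 2.69 with a standard error of 0.43, adjusted p = 0.0316). At 29 °C Mmd2 stood at 5.07 ± 1.90 CPM (SD, n = 4), near its level at 22 °C.

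Cyp17a1, the steroid 17-alpha-hydroxylase, was at 79.6, 245, 262 and 359 CPM at 6 °C and 102, 171, 17.4 and 14.1 CPM at 22 °C. These groups overlap: library 1 lay below libraries 5 and 6 and was higher only than libraries 7 and 8, which share its H2-Ea-ps transcript (log2 fold change 1.53 with a standard error of 0.28, adjusted p = 0.0472). Slc5a6, a transporter of biotin and pantothenate, also overlapped, with 23.5, 6.11, 10.6 and 7.95 CPM at 6 °C and 4.06, 3.97, 7.02 and 7.91 CPM at 22 °C (log2 fold change 1.26 with a standard error of 0.22, adjusted p = 0.0291). Gpr146, an orphan receptor of hepatocytes known for its effect on plasma cholesterol, was well separated, at 111, 84.5, 115 and 104 CPM against 38.8, 29.2, 48.5 and 57.0 CPM (log2 fold change 1.31 with a standard error of 0.24, adjusted p = 0.0372).

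Tk1, the thymidine kinase of dividing cells, rose by 1.32 on the log2 scale (27.6, 15.7, 12.4 and 24.7 CPM at 6 °C and 7.84, 6.52, 8.62 and 11.8 CPM at 22 °C, adjusted p = 0.0291). It was the 1 called gene of 32 measured proliferation genes, 25 of which had negative fold changes (median -0.22). The proliferation marker Mki67 stood at 59.1, 27.4, 32.2 and 22.3 CPM at 6 °C and 48.5, 48.3, 132 and 88.1 CPM at 22 °C (log2 fold change -0.80, adjusted p = 0.0740). Tk1 also shares exon sequence with Afmid on the opposite strand, which was not called (log2 fold change 1.14, adjusted p = 0.0548). Apol9b, of the apolipoprotein L family, rose by 1.15 (adjusted p = 0.0387) and Zfp467, a zinc finger protein, by 1.13 (adjusted p = 0.0469). Reads of Apol9b may be shared with its close paralog Apol9a.

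Calls of these genes depended on single libraries, each left out in turn. Mmd2 lost its call without library 1, 5, 6, 7, 10 or 11 (adjusted p up to 0.184). The call of Cyp17a1 was lost without library 1, 3, 4, 5, 7, 8 or 10 (up to 0.184), that of Slc5a6 without 1, 3, 5, 6, 7 or 10 (up to 0.116) and that of Gpr146 without 1, 3, 4, 5, 6, 7 or 10 (up to 0.184). For Tk1 the libraries were 1, 5, 6 or 7 (up to 0.117), for Apol9b 1, 4, 5, 6, 7, 10 or 11 (up to 0.171) and for Zfp467 1, 2, 4, 5, 6, 7, 10, 11 or 12 (up to 0.215).

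Tef and Nr1d2, both higher at 6 °C, belong to the circadian clock, in which PAR-domain factors such as TEF and DBP bind D-boxes (TTATGTAA), CLOCK and BMAL1 bind E-boxes (CACGTG), and the REV-ERB repressors close a feedback loop. The RefSeq promoter sequences of Tef (GRCm38.p6, 250 bases before to 50 after each start) hold an E-box at both annotated starts. Exons of Tef overlap an exon of Gm17597 on the opposite strand, and whether the promoter windows do was not tested. The promoter of Per3, another clock gene, holds 2 D-boxes. No such match was found for the clock genes Nr1d2, Dbp or Cry2, which were searched too, and Per3 was not called. The windows of Tef and Per3 are shown 5′ to 3′ with the motif in capitals because the clock was the 1 list with 2 called genes:
Tef, first start, chr15:81802526-81802571, plus strand: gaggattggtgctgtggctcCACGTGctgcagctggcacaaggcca
Tef, second start, chr15:81811256-81811301, plus strand: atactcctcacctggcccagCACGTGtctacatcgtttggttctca
Per3, chr4:151044843-151044890, minus strand: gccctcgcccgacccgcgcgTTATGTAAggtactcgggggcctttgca
Per3, chr4:151044796-151044843, minus strand: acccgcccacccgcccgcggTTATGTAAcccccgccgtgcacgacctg

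Tef stood at 264, 71.2, 178 and 98.2 CPM in libraries 1 to 4 and 33.0, 28.1, 47.6 and 55.9 CPM in libraries 5 to 8 (log2 fold change 2.04 with a standard error of 0.29, adjusted p = 0.0192). Nr1d2, which encodes REV-ERB-beta, stood at 128, 54.0, 73.2 and 60.2 CPM and 33.2, 23.3, 38.8 and 42.7 CPM (log2 fold change 1.28 with a standard error of 0.23, adjusted p = 0.0325). In both genes every cold library was higher than every library at 22 °C, with library 1 the highest and library 3 next. They were the 2 called genes of 20 measured clock genes, none was called lower, and 13 had an unadjusted p under 0.05 (15.7% over all genes). The list's median fold change was 0.43 on the log2 scale, 0.12 within the libraries without H2-Ea-ps and 0.74 within those with it. Without library 1 it was 0.13, and neither Tef nor Nr1d2 was called.

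Levels within the 6 °C group were uneven for the clock. Dbp stood at 143, 5.72, 47.1 and 6.69 CPM in libraries 1 to 4 and 0.738, 0.306, 2.81 and 5.53 CPM in libraries 5 to 8 (log2 fold change 4.96 with a standard error of 0.87, adjusted p = 0.0593). Per3 stood at 176, 14.1, 57.2 and 10.96 CPM and 5.08, 6.21, 8.17 and 11.9 CPM (log2 fold change 3.06 with a standard error of 0.63, adjusted p = 0.0805). Libraries 1 and 3 were far above libraries 2 and 4 in both genes, and neither gene was called.

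Arntl, which encodes BMAL1, was low where Dbp was high, at 1.51, 42.8, 10.7 and 43.6 CPM at 6 °C and 61.5, 70.4, 33.0 and 39.4 CPM at 22 °C (log2 fold change -1.68 with a standard error of 0.66, adjusted p = 0.275). Npas2, a partner of BMAL1, had 0.648, 12.1, 2.54 and 14.9 CPM and 34.5, 44.1, 14.6 and 20.5 CPM (log2 fold change -2.60 with a standard error of 0.60, adjusted p = 0.104). Libraries 1 and 3 were the lowest 2 of the 8 in both genes, while libraries 2 and 4 were near the 22 °C level of libraries 7 and 8 for Arntl. Dbp, Per3, Arntl and Npas2 were picked after their values were seen. The protocol gives the light cycle but no hour of sampling. In the difference between 6 °C and 22 °C, the hour of sampling and the housing temperature therefore cannot be told apart. Libraries 1 to 4 shared the housing temperature of 6 °C, and what set libraries 1 and 3 apart from 2 and 4 was not tested. Tef lost its call without library 1, 5, 6 or 7 (adjusted p up to 0.105) and Nr1d2 without library 1, 3, 5, 6, 7, 8 or 10 (up to 0.117).

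**Figure D2:**
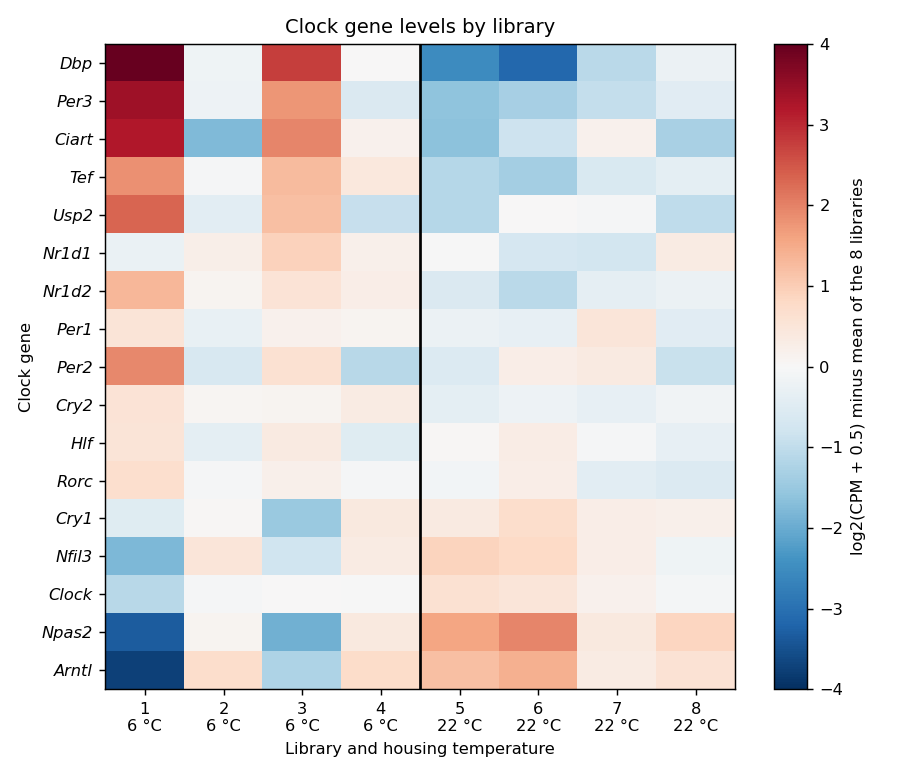
Levels of 17 clock genes in the 8 libraries, as log2(CPM + 0.5) minus the mean of the 8 for each gene, with red above and blue below that mean and colours capped at an absolute value of 4. Libraries 1 and 3 differ from libraries 2 and 4 within the 6 °C group, with Dbp and Per3 high and Arntl and Npas2 low.

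Dgat2 and Cyp8b1 rose among genes of lipid and bile acid synthesis. Dgat2 carries out the last step of triglyceride synthesis, and its level was 481, 440.4, 411 and 493 CPM at 6 °C and 274, 276, 308 and 268 CPM at 22 °C (log2 fold change 0.68 with a standard error of 0.14, adjusted p = 0.0490). Cyp8b1 encodes the sterol 12-alpha-hydroxylase that directs bile acids to cholic acid, and stood at 202, 145, 149.7 and 174 CPM and 102, 96.9, 90.2 and 114 CPM (log2 fold change 0.75 with a standard error of 0.14, adjusted p = 0.0325). Neither pair of groups overlapped. Dgat2 lost its call when any single library other than library 9 was left out (adjusted p up to 0.234), and Cyp8b1 without library 1, 4, 5, 6, 7 or 10 (up to 0.152).

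Dgat2 was the 1 called gene of 22 measured genes of fatty acid and triglyceride synthesis, 17 of which had positive fold changes (median 0.22, but 0.14 without library 1 and 0.34 without library 8). Fasn, fatty acid synthase, stood at 888, 2720, 2544 and 1824 CPM at 6 °C and 1425, 1728, 579 and 789 CPM at 22 °C (log2 fold change 0.47, adjusted p = 0.223). Its groups overlapped, with library 1 lower than libraries 5 and 6. Cyp8b1 was the 1 called gene of 20 bile acid genes (median 0.14, but 0.025 without library 1). Cyp7a1, the rate-limiting enzyme of bile acid synthesis, spread widely within both temperatures and overlapped, at 632, 80.4, 242 and 167 CPM and 38.0, 215, 24.9 and 15.8 CPM (log2 fold change 1.75 with a standard error of 1.02, adjusted p = 0.448). Cyp7b1, of the alternative pathway, stood at 16.6, 12.9, 16.3 and 13.1 CPM and 13.4, 14.9, 8.37 and 12.2 CPM (log2 fold change 0.25 with a standard error of 0.19, adjusted p = 0.564) and did not pass.

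Of 26 genes of cholesterol synthesis and uptake, 0 were called at an adjusted p under 0.05 in edgeR's quasi-likelihood test, while 25 had positive fold changes and 17 an unadjusted p under 0.05 (15.7% over all genes). Their median was 0.53 on the log2 scale, against -0.0038 over all genes, and 0.35 without library 1. In 6 of the 26 the 4 cold libraries all lay above the 4 at 22 °C (3.53% over all genes). Insig2 was the 1 gene with a negative fold change (-0.96, adjusted p = 0.315). The list's median kept its sign in the 27 settings tried.

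Prodh was the 1 called gene of 42 measured genes for urea synthesis and amino acid breakdown. In this list 38 fold changes were positive (median 0.39), 21 had an unadjusted p under 0.05 (15.7% over all genes), and 8 had all cold libraries above all at 22 °C (3.53% over all genes), with none below. Gls2, liver glutaminase, stood at 322, 501, 414 and 1043 CPM and 268, 309.5, 140.5 and 217 CPM (log2 fold change 1.04 with a standard error of 0.27, adjusted p = 0.109). Aldh4a1, which takes proline breakdown on to glutamate, stood at 258, 249.5, 211 and 360.2 CPM and 119, 117, 160.3 and 191 CPM (log2 fold change 0.87 with a standard error of 0.26, adjusted p = 0.146). Asl, argininosuccinate lyase of the urea cycle, stood at 436, 671, 688 and 1036 CPM and 389, 469.8, 310.4 and 211 CPM, where library 1 lay below library 6 (log2 fold change 0.81 with a standard error of 0.20, adjusted p = 0.0765). None of these 3 was called. All 19 measured genes of branched-chain amino acid breakdown had positive fold changes (median 0.26), 0 were called and 7 had an unadjusted p under 0.05 (15.7% over all genes).

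Of 60 nuclear genes of oxidative phosphorylation, 0 were called in edgeR's test and 55 had positive fold changes, with a median of 0.39 on the log2 scale. The unadjusted p was under 0.05 in 33 (15.7% over all genes). In 16 all cold libraries lay above all at 22 °C, with none the other way (3.53% and 2.81% over all genes). Uqcr11, a small subunit of complex III, stood at 32.8, 38.8, 42.5 and 47.8 CPM and 19.5, 20.2, 26.5 and 28.9 CPM (log2 fold change 0.83 with a standard error of 0.19, adjusted p = 0.0677). Ndufb9, a subunit of complex I, stood at 55.2, 68.3, 69.5 and 87.6 CPM and 53.9, 47.5, 32.5 and 32.4 CPM (log2 fold change 0.62 with a standard error of 0.14, adjusted p = 0.0681), and Sdhb, of complex II, at 77.0, 90.9, 96.1 and 144 CPM and 47.9, 67.7, 50.4 and 61.5 CPM (log2 fold change 0.72 with a standard error of 0.18, adjusted p = 0.0969). The groups of these 3 did not overlap, so they are among the 16 and do not stand for the other members of the list. In the TCA cycle list 18 of 19 fold changes were positive and 0 were called (median 0.31, but 0.18 without library 1), with the lowest p in Fh1, fumarate hydratase, at 168, 187, 212 and 252 CPM and 115, 118, 129.7 and 103 CPM (log2 fold change 0.75 with a standard error of 0.16, adjusted p = 0.0505).

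Transcripts encoded in the mitochondrial genome were counted separately. Of 7 tested, 0 were called and 1 had a positive fold change (median -0.42, and -0.79 to -0.16 with 1 library left out, lowest without library 3 and highest without library 2). Within the libraries without H2-Ea-ps the median was -0.99 and within those with it 0.65. mt-Co1, a subunit of complex IV, stood at 8639, 7948, 17550 and 9880 CPM at 6 °C and 20440, 23320, 6126 and 7484 CPM at 22 °C, and its levels were highest in libraries 3, 5 and 6, of both temperatures.

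**Figure D3:**
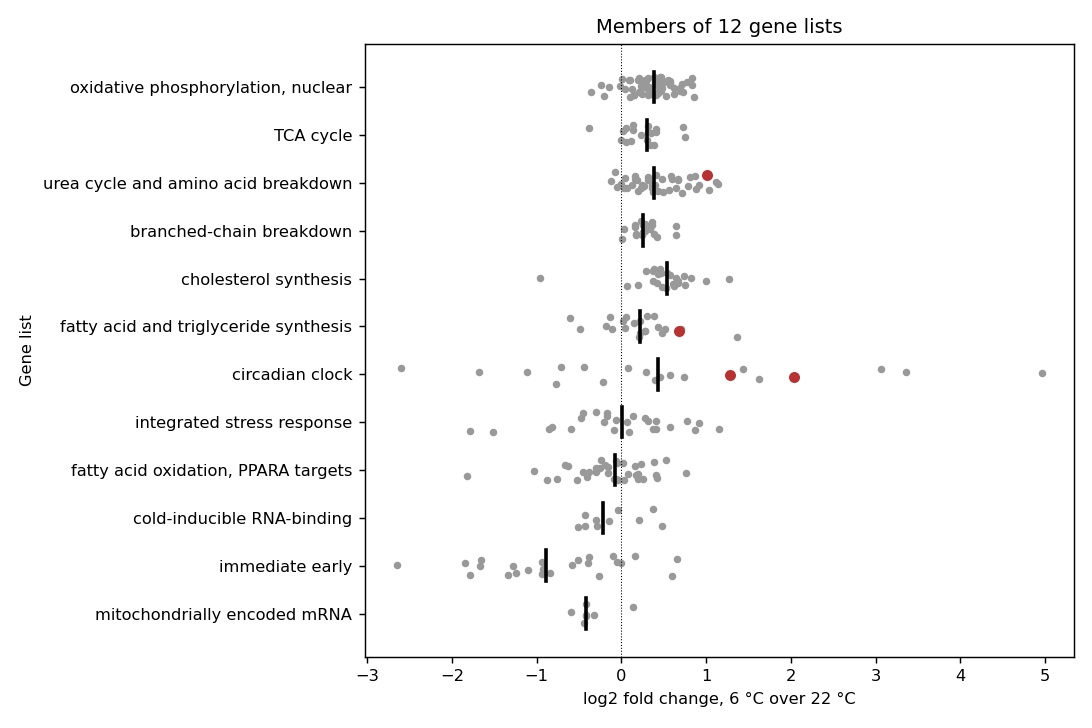
Log2 fold changes of 6 °C over 22 °C for the measured members of 12 gene lists, each point a gene and each bar the list's median, with called genes in red. The medians of the oxidative phosphorylation, amino acid, cholesterol and clock lists are positive, that of the immediate early list is negative, and red points are in 3 of the 12 lists (amino acid breakdown, triglyceride synthesis and the clock).

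Ppp1r3c, a glycogen gene, and Slc16a6, a ketone body transporter, were among the genes that fell at 6 °C. Ppp1r3c encodes PTG, which brings protein phosphatase 1 to glycogen. Its RefSeq promoter holds an E-box and that of Inhba a D-box on the opposite strand, shown for comparison with the clock genes:
Ppp1r3c, chr19:36736683-36736728, minus strand: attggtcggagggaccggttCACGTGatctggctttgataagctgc
Inhba, chr13:16011708-16011755, plus strand: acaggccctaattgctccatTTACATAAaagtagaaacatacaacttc

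Ppp1r3c stood at 5.47, 50.4, 44.3 and 38.4 CPM at 6 °C and 157, 119.9, 39.3 and 66.3 CPM at 22 °C (log2 fold change -2.07 with a standard error of 0.31, adjusted p = 0.0192). The groups overlapped at libraries 2, 3 and 7. Within the splits the fold change was -1.64 without H2-Ea-ps and -3.27 with it. The rule that named this gene required separation in the same direction within both, so this is no further support. Ppp1r3c did not pass in edgeR's test without the split term (adjusted p = 0.412). It lost its call without library 4 or 5 (adjusted p up to 0.116). Ppp1r3c was the 1 called gene of 18 glycogen genes (median -0.07, and -0.11 without library 1 to 0.016 without library 4). Gys2, the liver glycogen synthase, stood at 224, 80.4, 131 and 109 CPM and 106, 114, 96.4 and 101 CPM (log2 fold change 0.40 with a standard error of 0.25, adjusted p = 0.458).

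Slc16a6, a monocarboxylate transporter known to export ketone bodies from hepatocytes, stood at 12.8, 13.3, 8.10 and 7.36 CPM at 6 °C and 17.4, 16.3, 40.4 and 37.5 CPM at 22 °C (log2 fold change -1.15 with a standard error of 0.20, adjusted p = 0.0291). The groups did not overlap, though libraries 5 and 6 were near the cold libraries and libraries 7 and 8 far above. The call was lost without library 1, 3, 5, 6 or 7 (adjusted p up to 0.105). Among 7 ketogenesis genes no other was called. None of 36 genes of fatty acid oxidation and PPARA targets was called by edgeR (9 at an unadjusted p under 0.05, 15.7% over all genes), with 14 positive and a median of -0.08 (-0.15 without library 6 to -0.0022 without library 2).

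Other genes among the lowest fold changes were of varied function. Slc34a2, a sodium-phosphate transporter, had 0.144, 3.46, 1.75 and 1.34 CPM at 6 °C and 7.94, 10.6, 2.36 and 3.06 CPM at 22 °C (log2 fold change -2.54 with a standard error of 0.40, adjusted p = 0.0192), and its groups overlapped. Gask1a, a Golgi-associated kinase-like protein, had 1.08, 4.65, 4.77 and 4.10 CPM and 11.6, 16.8, 7.599 and 20.01 CPM (log2 fold change -2.34 with a standard error of 0.41, adjusted p = 0.0325), without overlap. Arl4a, a small GTPase, had 11.2, 20.3, 16.2 and 24.2 CPM and 43.1, 43.9, 38.5 and 38.4 CPM (log2 fold change -1.37 with a standard error of 0.20, adjusted p = 0.0132). Its cold libraries were all well below those at 22 °C, and it lost its call only without library 1 among the single libraries left out (adjusted p up to 0.0569). The other called genes of this set were Ptp4a1, a phosphatase of regenerating liver (log2 fold change -1.28, adjusted p = 0.0424), Pdgfc, a platelet-derived growth factor (-1.20, 0.0192), and Plppr1, a membrane protein related to lipid phosphatases (-1.92, 0.0372). Calls were lost without library 1 or 6 for Slc34a2 (adjusted p up to 0.0618), 1, 2, 3, 4, 6, 10 or 11 for Gask1a (up to 0.0922), 1, 4, 5, 6, 7, 8, 10, 11 or 12 for Ptp4a1 (up to 0.164), 1, 5 or 6 for Pdgfc (up to 0.0745) and 1, 3, 4, 5, 6, 7, 10 or 11 for Plppr1 (up to 0.184).

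The remaining 32 called genes, 16 higher and 16 lower, are named here after their values were seen. Aacs, which makes acetoacetyl-CoA for lipid synthesis in the cytosol, stood at 90.1, 96.6, 88.8 and 65.3 CPM and 29.7, 45.6, 41.4 and 41.9 CPM (log2 fold change 1.09 with a standard error of 0.19, adjusted p = 0.0259). Chpt1, of phosphatidylcholine synthesis, rose by 0.81 (adjusted p = 0.0316) and Fads6, of the fatty acid desaturase family, by 0.92 (adjusted p = 0.0192). Mknk2, a kinase of the translation factor eIF4E, was at 214, 232, 179 and 267 CPM and 102, 75.3, 141 and 128 CPM (log2 fold change 1.07 with a standard error of 0.18, adjusted p = 0.0192), with no overlap. Pdxk, pyridoxal kinase, stood at 75.5, 69.2, 62.7 and 62.7 CPM and 36.3, 36.1, 39.3 and 47.9 CPM (log2 fold change 0.79 with a standard error of 0.13, adjusted p = 0.0192), also with no overlap. The others were Adora1, Avpi1, Dap, Map2k3, Marveld1, Pgpep1, Ppif, Sbk1, Selenow, Slc26a1 and the pseudogene Mup-ps13.

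Mup-ps13, from the major urinary protein cluster, had 4.39, 1.99, 2.30 and 2.51 CPM at 6 °C and 0.738, 0.306, 0.0639 and 0.299 CPM at 22 °C (log2 fold change 3.05 with a standard error of 0.58, adjusted p = 0.0384), so it was a low transcript in all 8 libraries. Genes of this cluster are near-identical copies, and the sources used here do not say how reads were shared among them. Of 6 tested Mup genes 0 were called and 5 had positive fold changes (median 1.17, and up to 1.91 with 1 library left out, in that case library 6), and Mup3 stood at 104, 731, 644 and 530 CPM and 1216, 1001, 83.7 and 175 CPM (log2 fold change -0.54 with a standard error of 0.34, adjusted p = 0.473).

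Among the lower genes, Leap2 encodes a liver peptide that antagonises the ghrelin receptor, and stood at 8.28, 9.70, 12 and 13.5 CPM and 24.5, 21.0, 19.4 and 19.4 CPM (log2 fold change -1.06 with a standard error of 0.20, adjusted p = 0.0316). Arrdc4, an arrestin-domain protein of the thioredoxin-interacting family, was at 20.4, 24.7, 27.5 and 29.5 CPM and 61.4, 74.9, 27.4 and 40.2 CPM (log2 fold change -1.10 with a standard error of 0.16, adjusted p = 0.0126). Leap2 was lower in every cold library, while the groups of Arrdc4 overlapped at libraries 3, 4 and 7. Avpr1a, the vasopressin V1a receptor, fell by 0.65 on the log2 scale (adjusted p = 0.0291) and Cers6, a ceramide synthase, by 0.71 (adjusted p = 0.0412). Tab2, an adaptor of the kinase TAK1, was at 67.3, 101, 102 and 101 CPM and 186, 148, 138 and 136 CPM (log2 fold change -0.80 with a standard error of 0.12, adjusted p = 0.0151). The other 11 were Cpeb4, Gimap9, Rai14, Sdr9c7, Slc17a4, Tcim, Trpm6, Zfp407 and the non-coding 4833411C07Rik, Gm36041 and Gm43189. Of all 55 called genes 15 have exons that overlap a gene on the opposite strand, and 6 of the 15 have a partner that was itself tested. Slc5a6 overlaps Atraid, with means of 30.6 CPM at 6 °C and 23.4 CPM at 22 °C. Slc16a6 overlaps Arsg, with means of 17.3 CPM at both. In 3 called genes, Gask1a, Ptp4a1 and Slc16a6, exons overlap another gene on the same strand. Among the remaining called genes, 11 were given with values or fold changes. Of these, calls were lost without library 1, 5 or 6 for Aacs, 1, 5, 6 or 10 for Chpt1 and 1, 5 or 6 for Fads6. They were lost without 5 or 6 for Mknk2, 1, 5 or 6 for Pdxk and 1, 2, 3, 5, 6 or 7 for Leap2. For Arrdc4 it was 6, for Avpr1a 1, 3, 5, 6, 7 or 10 and for Tab2 1 or 5. For Mup-ps13 it was 1, 3, 4, 5, 6, 7, 8, 10 or 11, and for Cers6 all but libraries 8 and 9.

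Fgf21, the gene in the title of the series, was barely detected at 6 °C. Its promoter is printed for its amino acid response element (TGATGNAA, here on the opposite strand), the kind of site through which the stress factor ATF4 is known to act:
Fgf21, chr7:45615602-45615649, minus strand: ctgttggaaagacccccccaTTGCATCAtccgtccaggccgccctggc

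Fgf21 stood at 1.44, 0, 0.794 and 0 CPM in libraries 1 to 4 and 2.49, 0.917, 11.1 and 8.96 CPM in libraries 5 to 8 (ENSMUSG00000030827.5, chromosome 7, 45613886 to 45615490, minus strand). Library 6 lay below library 1, so the groups overlapped, and 3 of the 4 values at 22 °C were above all cold values. The 2 counts of 0 allow up to 0.399 CPM in library 2 and 0.251 CPM in library 4. Its fitted fold change was -2.87 on the log2 scale (SE 0.98) and did not pass (adjusted p = 0.211, within 3.45e-17 to 0.459 over the alternatives). The lowest of these came without a filter on low counts, the 1 alternative of 28 in which Fgf21 passed. In that fit 846 genes passed, against 55 with the filter, and the fold change of Fgf21 was still -2.87. Permuting log2(CPM + 1) exactly over the 8 libraries gave a difference of -1.88 and p = 0.0571 (exact permutation test, two-sided, 4 against 4, where 70 assignments allow no p under 0.0286). Receptor and co-receptor genes were not called. Klb, the co-receptor, stood at 46.5, 53.8, 58.4 and 67.8 CPM and 50.7, 54.2, 30.2 and 45.4 CPM (log2 fold change 0.20 with a standard error of 0.15, adjusted p = 0.535), and Fgfr4, the main hepatocyte receptor of the family, at 72.5, 85.1, 62.8 and 93.7 CPM and 48.2, 45.2, 69.4 and 90.3 CPM (log2 fold change 0.42 with a standard error of 0.19, adjusted p = 0.306).

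Of 26 genes of the integrated stress response 0 were called by edgeR, and 5 had an unadjusted p under 0.05 (15.7% over all genes). In this list 13 fold changes were positive, with a median of 0.0036 (0.27 within the libraries without H2-Ea-ps and -0.25 within those with it, and -0.10 without library 6 to 0.12 without library 7). Dio1, the deiodinase that activates thyroid hormone and responds to it, stood at 125, 118, 126 and 61.8 CPM at 6 °C and 34.0, 53.7, 30.4 and 20.2 CPM at 22 °C. Every cold library was above every library at 22 °C, and the difference did not pass (log2 fold change 1.61 with a standard error of 0.33, adjusted p = 0.0677). It passed in 6 of 28 alternatives, among them without library 4 (the lowest cold value) or 11. None of the other 14 genes of thyroid hormone handling and response was called. The co-repressor gene Ncor1 stood at 196, 216, 237 and 189.7 CPM and 336, 323, 244 and 247 CPM, lower in every cold library (log2 fold change -0.50 with a standard error of 0.12, adjusted p = 0.0828). Thrsp, a thyroid-responsive gene of lipid synthesis, stood at 313, 182, 177 and 119.5 CPM and 94.3, 108, 58.1 and 48.5 CPM (log2 fold change 1.37 with a standard error of 0.34, adjusted p = 0.114). Thrb, the main thyroid hormone receptor of hepatocytes, stood at 58.3, 65.8, 78.2 and 63.3 CPM and 88.9, 84.8, 52.4 and 48.1 CPM (log2 fold change -0.15 with a standard error of 0.13, adjusted p = 0.619).

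Genes known to respond to a lowered cell temperature were not called. Cirbp, a cold-inducible RNA-binding protein, stood at 10.4, 9.17, 8.10 and 7.86 CPM at 6 °C and 4.61, 4.58, 6.90 and 13.1 CPM at 22 °C (log2 fold change 0.48 with a standard error of 0.29, adjusted p = 0.448), and library 8 was the highest of the 8. Rbm3, a related protein, stood at 19.9, 11.7, 10.01 and 7.53 CPM and 8.31, 9.98, 11.4 and 20.01 CPM (log2 fold change 0.20 with a standard error of 0.26, adjusted p = 0.743), with libraries 1 and 8 highest. Both sets of groups overlapped, and the sign of each fold change turned in at least 1 alternative. Of 10 temperature-sensitive RNA-binding genes 0 were called by edgeR and 4 had an unadjusted p under 0.05, against 15.7% over all genes (median -0.21, nearest 0 at -0.13 without library 8). The splicing regulator Tra2b stood at 29.96, 18.1, 23.04 and 16.2 CPM and 31.6, 31.7, 31.9 and 34.9 CPM (log2 fold change -0.51 with a standard error of 0.15, adjusted p = 0.134), lower in every cold library.

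The immediate early list, transcription factors and regulators induced within minutes of a stimulus, had a median of -0.89 with 0 of 24 genes called by edgeR and 9 at an unadjusted p under 0.05 (15.7% over all genes). Without library 1 the median was -0.52. It was -0.30 within the libraries without H2-Ea-ps and -1.79 within those with it. Jun, a subunit of AP-1, stood at 18.4, 33.6, 24.5 and 24.4 CPM at 6 °C and 86.1, 72.0, 100.1 and 50.5 CPM at 22 °C (log2 fold change -1.85 with a standard error of 0.47, adjusted p = 0.130). Egr1, an early growth response factor, stood at 27.7, 191, 78.7 and 164 CPM and 286, 285, 211 and 212 CPM (log2 fold change -1.66 with a standard error of 0.43, adjusted p = 0.130). Gadd45b, a stress-inducible gene, stood at 1.51, 4.25, 1.99 and 3.60 CPM and 17.6, 8.25, 18.1 and 10.9 CPM (log2 fold change -2.65 with a standard error of 0.61, adjusted p = 0.104). In these 3 and in Zfp36, 4 of the 24, all cold libraries lay below all at 22 °C (2.81% over all genes), with library 1 the lowest in each.

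Called genes were found in 8 of 48 gene lists and in 0 of 16 lists of cell type markers, and 46 of the 55 called genes are on no list. Most tested genes are on no list either, since all lists together hold 1235 entries against 15006 genes tested. With 0.367% of all tested genes called, a short list without a called gene says little about its genes. Granulocyte precursor markers had a median of -1.11 with 0 of 11 called (3 at an unadjusted p under 0.05, 15.7% over all genes), and their summed level was 1145, 945, 695 and 24.4 CPM at 6 °C and 593, 326, 2752 and 1790 CPM at 22 °C. Library 4 was the lowest and libraries 7 and 8 the highest. Neutrophil markers summed to 530.5, 342, 298 and 60.0 CPM and 337, 321, 871 and 602 CPM, in the same order at both ends. Mki67 was also highest in libraries 7 and 8, and the part of these cells in the proliferation list was not tested. Kupffer cell and macrophage markers summed to between 800.4 and 1392 CPM at 6 °C and between 783 and 1664 CPM at 22 °C. Pancreatic acinar markers summed to 63.7 CPM in library 3 and to between 2.43 and 4.68 CPM in the other 7. Fibroblast and stellate markers summed to 1270 CPM in library 1, above the 577 to 1110 CPM of the other 7. Of 10 markers of mammary epithelium 7 (Krt5, Krt14, Wap, Csn2, Csn3, Lalba and Elf5) were at 0 in all 8 libraries. The sum of the 10, 281 to 371 CPM at 6 °C and 202 to 279.7 CPM at 22 °C, was nearly all Krt8 and Krt18, keratins that hepatocytes also make. Whether E0771 cells make the 7 was not tested, so the values of 0 do not tell whether such cells were present. Adipocyte markers summed to 86.7 to 118 CPM at 6 °C and 59.6 to 74.7 CPM at 22 °C without overlap, nearly all from Pnpla2 and Lipe, lipases that hepatocytes also make. The adipocyte hormone gene Adipoq was at no more than 0.418 CPM, and Ucp1, the uncoupling protein of brown fat, was at 0 in all 8.

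The difference between temperatures was then compared between the splits. Within the 5 libraries without H2-Ea-ps (libraries 2 to 4 against 5 and 6) 1154 genes passed (7.69%, with 5.23% higher and 2.46% lower at 6 °C), and 51 of the 55 were among them. Within the 3 libraries with it (library 1 against 7 and 8) 70 passed (0.466%, with 0.147% higher and 0.32% lower), 17 of the 55 among them. These values come from the same libraries as the pooled ones and are no separate evidence. Without H2-Ea-ps, the 22 °C side was libraries 5 and 6 alone. Gm26917 took 0.667% and 0.606% of their counts, against 1.66% to 5.82% in libraries 2 to 4. In that contrast housing temperature and this difference between libraries cannot be told apart. A test of the difference between the 2 contrasts called 23 genes (0.153%) and 0 of the 55. That test rests on library 1, the 1 cold library with H2-Ea-ps, which was the lowest of the 8 in 14 of the 23 genes and the highest in 3. Dusp1, a phosphatase of MAP kinases, stood at 16.9 CPM in library 1 and at 104 to 198 CPM in the other 7, and its fold change was -0.53 without H2-Ea-ps and -3.36 with it (adjusted p of the difference = 0.0111). For Thrsp the same values were 0.66 and 2.55 (adjusted p of the difference = 0.0416). Dusp1 and Thrsp are named here with their values known. Leaving out library 5 or 6 gave a count of 0, library 10 gave 1, library 2 or 8 gave 2, library 11 gave 5, library 7 gave 6, library 12 gave 9 and library 3 gave 774.

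**Figure D4:**
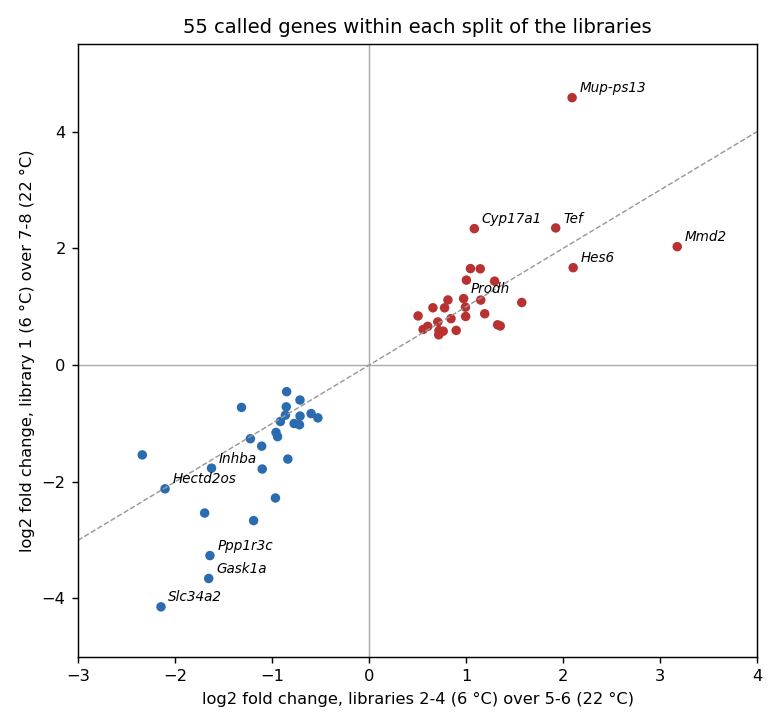
Log2 fold changes of the 55 called genes within the 5 libraries without H2-Ea-ps (x axis) and within the 3 libraries with it (y axis), with genes higher at 6 °C in red, lower in blue, and the dashed line marking equal values. All 55 points lie in the upper right or lower left, and Mmd2 lies to the right of the line while Mup-ps13 lies above it.

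Promoter letters were compared between called genes and all tested genes as a description. RefSeq promoters matched 25 of the 29 genes higher at 6 °C, 20 of the 26 lower and 10665 of 15003 symbols tested. The E-box CACGTG, a palindrome counted once for both strands, was in 4 promoters of higher genes (16.0%), 3 of lower genes (15.0%) and 11.5% of all. The D-box TTATGTAA, searched on both strands, was in 0 of the higher genes, 2 of the 20 lower genes (Inhba and 4833411C07Rik) and 0.778% of all. The amino acid response element was in 0 higher genes, 1 lower gene (Gm36041, 5.0%) and 2.88% of all. The SRE (TCACNCCAC), the heat shock element, the CRE (TGACGTCA) and the DR1 nuclear receptor element, each on both strands, were in 0 promoters of either set and in 1.5%, 0.553%, 3.38% and 0.0469% of all. A motif overlap with another of these was not scored, and no match says only that these letters are not in this window.

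**Figure D5:**
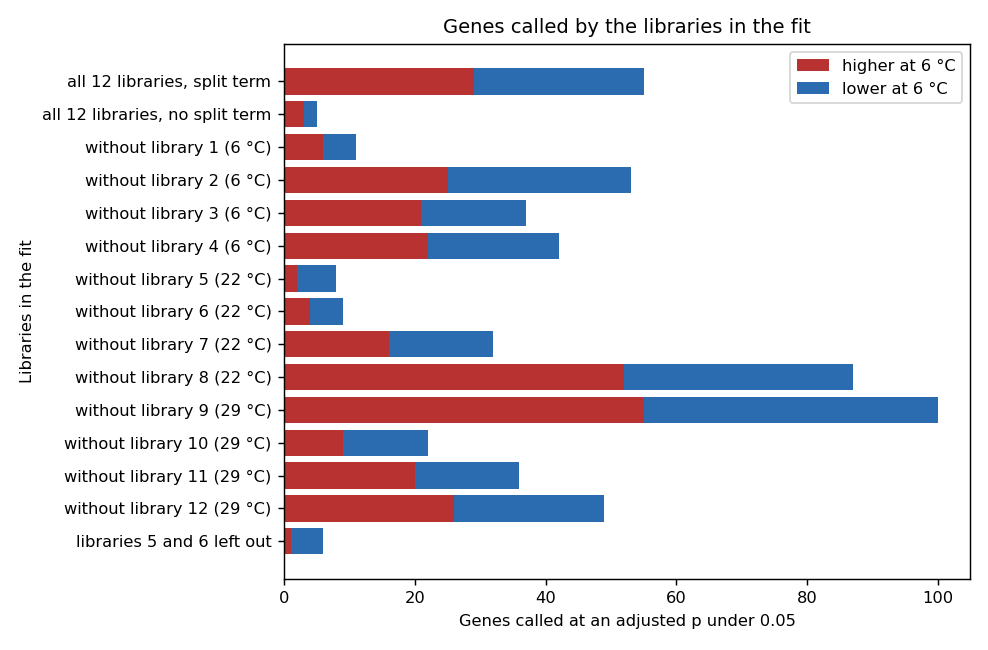
Number of genes called at an adjusted p under 0.05, higher at 6 °C in red and lower in blue, for the fit of all 12 libraries with and without the split term, with each library left out and with libraries 5 and 6 left out. With all libraries the count is 55 with the split term and 5 without it. With 1 library left out it runs from 8 without library 5 to 100 without library 9. It is 6 with libraries 5 and 6 both left out.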

How the data were processed

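Raw counts per gene, deposited by the authors as 1 table of 12 libraries, were used without change; per the submitters' processing notes the tools were bcl2fastq, STAR 2.6.1a and DESeq2 1.44.0 with the build GRCm38, and the sources used here give neither the counting program nor its strand setting. Per the labels' protocols the libraries were made from rRNA-depleted total RNA. Total counts ran from 7615585 to 14770547 in the 8 libraries compared. Genes were filtered with filterByExpr by group and scaled by TMM, and fitted with edgeR 4.0.16 in R 4.3.3 (quasi-likelihood test, robust) over all 12 libraries. The fit had a mean per temperature and a term for the libraries in which H2-Ea-ps reached 1 CPM (8 residual degrees of freedom). Genes were called at a Benjamini-Hochberg adjusted p under 0.05, two-sided, over all genes tested, and every adjusted p in the text is edgeR's unless another tool is named. The standard error is the size of the log2 fold change divided by the square root of F. CPM values use the scaled library sizes. Values within each split come from a fit of 6 cell means (6 residual degrees of freedom). Lists are described by counts and medians, with no test of a list.

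Genes named by rule were Fgf21, Dio1, Cirbp, Rbm3 and Cyp7b1, called list members, and the called genes with the 10 most positive and 10 most negative fold changes. The last had to average 1 or more in log2 CPM, carry a regular symbol and be separated in the same direction within both splits. Other list members given with values, among them Uqcr11, Ndufb9, Sdhb, Gls2, Aldh4a1, Fh1, Jun, Egr1, Gadd45b, Ncor1 and Tra2b, are outside this rule. They need not be typical of their lists. The members and lists were chosen with earlier results of these data known. Simulated counts were made for this comparison (14686 genes). On them the fit with the split term recovered 61% of 100 genes changed 2-fold and 84% of 100 changed 4-fold. It made 7 false calls. The fit without that term recovered 38% and 77%, with 2 false calls. Whether the simulated libraries differed among themselves as the real ones did was not tested. These rates therefore describe the simulated counts and give no error rate for the genes called in the data. Alternatives were other scalings, filters, terms and library sets, DESeq2 1.42.0 and limma 3.58.1 (voom). Replicate libraries were checked and none was a duplicate of another. Values of a few single genes are not reported here.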

Additional observations from a re-analysis of the deposited data

Results flagged for a closer look

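Within the 4 libraries of a group, 4 values stood apart from the other 3 by more than Dixon's test allows at 95%, of 56 groups checked, where chance gives about 1 in 20. Dio1 was at 61.8 CPM in 6 °C library 4 and at 118 to 126 CPM in the other 3. Apol9b was at 82.5 CPM in the same library and at 43.5 to 48.9 CPM in the others. Hes6 was at 11.2 CPM in 22 °C library 8 and at 7.66 to 8.21 CPM in the others, and Mmd2 at 7.91 CPM in that library and at 5.70 to 6.07 CPM in the others. In Hes6 and Mmd2 the high library still lay below all 4 cold libraries.

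The difference between 6 °C and 22 °C was itself different between libraries with and without H2-Ea-ps in 23 genes (edgeR's test of the interaction, adjusted p under 0.05), of which 19 were lower with the transcript than without and 4 higher. The cold side with the transcript is library 1 alone, so the split and that library cannot be told apart.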

How the results depend on the processing

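The count of 55 called genes was 5 without the split term, 25 in the 8 libraries alone with it and 3 without it, 1015 in the libraries without H2-Ea-ps alone and 1154 within them in the fit of cell means. It was 91 with Gm26917 as a covariate, 846 without a low-count filter, 472 by DESeq2, 134 by limma voom and 31 with a fold change of at least 2-fold required. Leaving out 1 library gave 8 to 100, and leaving out libraries 5 and 6, an alternative chosen after seeing the data, gave 6. The count stayed within 1.5 times of 55 with DESeq2 size factors (61), upper-quartile factors (61), abundant genes left out (58), a stricter filter (58) and within the libraries with H2-Ea-ps (70). Of the 55, DESeq2 called 54, limma voom 53, the Gm26917 fit 35 and the 8 libraries with the split term 18, all in the same direction, and 0 passed in all 28 alternatives. The count of 23 genes whose difference differed between the splits was 646 without a low-count filter and 0 to 774 with 1 library left out, and it could not be fitted without library 1. Fgf21 passed without the filter (log2 fold change -2.87, adjusted p = 3.45e-17) and ranged from -3.62 to -2.58 with 1 library left out. Signs turned for Cirbp (-0.0206 without libraries 5 and 6), Rbm3 (-0.0144 without the split term and -0.0182 in the 8 libraries without it) and Cyp7b1 (-0.0113 in the libraries without H2-Ea-ps alone and -0.000986 within them). For the other named genes 534 values kept their direction and their side of the threshold, 211 lost and 6 gained a call. List counts stayed within 1.5 times in 1470 cases and moved further in 294. The cause of these changes was not tested. No paired analysis was possible because the 6 °C and 22 °C groups share no replicate numbers. Depth limits low genes: 3 counts are 0.192 to 0.399 CPM, and 2 of the 4 cold libraries held 0 counts of Fgf21.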
